A study of Rattus norvegicus with 8 samples.

Results

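Hnf4a, Foxa1, Foxa2, Foxa3, Cebpa, Cebpb, Prox1, Nr5a2 and Gata4, 9 genes in all, encode transcription factors enriched in hepatocytes, and their RNA was followed through 8 samples of rat liver cells. They were chosen by name alone, as every non-control probe that the array design names for one of them. This gave 9 of 36174 gene names or transcript identifiers, and 16 probes on 34 spots out of 45598 probes on 58717 spots. The livers had been treated with retrorsine (Ret), a plant alkaloid that blocks the division of mature hepatocytes, followed by partial hepatectomy (PH). In such livers, clusters of small hepatocyte-like progenitor cells (SHPCs) appear, and the study asked how the transplantation of bone marrow-derived mesenchymal cells (BM-MCs) acts on them. RNA of cells cut out by laser microdissection (LMD) was hybridised to 1-colour Agilent arrays.

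The samples fell into 3 groups, all from livers of F344 rats that had received Ret and PH. Control livers without a transplant gave SHPC clusters (control SHPCs, 3 samples). The sample titles do not say whether the mature hepatocytes (MHs, 2 samples) came from livers with a transplant. The paper's discussion speaks of MHs of BM-MC livers in its array clustering, so their liver of origin is not certain. Livers that had received BM-MCs gave the remaining SHPC clusters (SHPCs with BM-MCs, 3 samples). The labels name the DPPIV+ strain for every sample, whereas the methods give DPPIV- females as recipients and DPPIV+ males as donors, and the labels give no age or time. Clusters were recognised by their look after hematoxylin staining, so a captured area can hold other cells of the liver. Which animal a sample came from is not given, so samples of a group may share one, and p-values over samples may then be too small and measure technical spread.

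Liver-enriched transcription factors act as a network. HNF4A, the FOXA factors and the C/EBP factors bind together at enhancers of genes for plasma proteins, bile acid synthesis and urea synthesis, and they hold each other's expression in place. PROX1, NR5A2 and GATA4 belong to the same liver programme from the embryonic liver bud onward, and the balance of these factors is widely used to tell a mature hepatocyte from a progenitor or a biliary cell.

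All 8 arrays lay on 1 slide, in 2 sets of 4. The first set held both MHs with control SHPC replicates 1 and 2, and the second held the BM-MC samples with the remaining control SHPC sample. Spots well above background made up 57.0% to 61.5% of each array. The scanner file of control SHPC replicate 2 held 20903 of 62976 features, and its signals were taken from the deposited value table. Hepatocyte markers, 10 in all, had a mean level per sample between 5.79 and 6.20 in all 8 samples. Of the 10, 9 were higher in control SHPCs than in MHs, and 8 were lower with BM-MCs than in control SHPCs. The test called 0 of them in control SHPCs against MHs, SHPCs with BM-MCs against MHs, or between the SHPC groups. It called 1.13%, 0.338% and 0.0216% of all tested probes there, so 0 of 10 does not set these markers apart from other genes. Levels are log2 signals relative to the 75th percentile of the array, so that 0 is that percentile, and the level of one probe is not set against that of another.

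The 2 probes for Prox1 are shown first, since they gave opposite results and their sequences differ in kind. The brighter probe (10 spots, chromosome 13 from 106421687 to 106421746, minus strand, rn4) holds an uninterrupted run of alternating T and G of 33 of its 60 bases. The other probe (chromosome 13 from 106417885 to 106417944, minus strand, rn4) has no such run, and its longest is 4 bases. Beside them stand the 3 genes whose pattern over the 8 samples was most like that of the brighter probe, among probes whose gene was matched to RefSeq. LOC361346, LOC103694145 and LOC102553440, which have only the array's own name and also hold a TG run, were closer than the second and the third of them. Each line is a stretch of 30 bases of the probe, 5′ to 3′, with the run in capitals.
Prox1, probe with the run: ggattTGTGTGTGTGTGTGTGTGTGTGTGT
LOC102556477: tgcccTGTGTGTGTGTGTGTGTGTGTGTGT
Iba57: gtttaTGTGTGTGTGTGTGTGTGTGTGTGT
RT1-CE1: tgggaGTGTGTGTGTGTGTGTGTGTGTGTG
Prox1, other probe: gtgttttaagcttttctatattctccgaac

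All 16 probes were well above background on the 7 arrays with complete marks, and all 16 were tested. Of the 9 genes, each taken by its brightest probe, 0 passed limma at an adjusted p under 0.05 in any of the 3 comparisons. The share of all 23111 tested probes that passed was 1.13% for control SHPCs against MHs, 0.338% for SHPCs with BM-MCs against MHs, and 0.0216% for SHPCs with BM-MCs against control SHPCs, the order kept below. At an unadjusted p under 0.05, 0, 0 and 1 of the 9 passed, beside 19.2%, 13.3% and 16.6% of all tested probes. The median log2 difference of the 9 was -0.061, 0.13 and 0.042, beside a median over all tested probes of -0.032, 0.0030 and 0.018. With Prox1 taken by its other probe it was -0.13, 0.059 and 0.23. In bulk RNA of captured cells, fewer cells of a type and less RNA per cell cannot be told apart.

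The intervals tell how large a difference could have been missed, provided that the samples are independent. They are too narrow if samples of a group share an animal. For SHPCs with BM-MCs against MHs, a difference between the groups and one between the 2 sets of arrays cannot be told apart. The 95% interval of the log2 difference lay within 2-fold in either direction for 8, 8 and 9 of the 9 genes, and Prox1 by its brighter probe was the exception in both comparisons with MHs. It lay within 1.5-fold for 5, 4 and 3 genes. The range over the 8 samples went from 0.41 for Nr5a2 to 1.12 for Prox1 by the probe with the run (0.39 by the other) with a median of 0.64, beside a median of 0.73 over all tested probes.

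**Figure D1:**
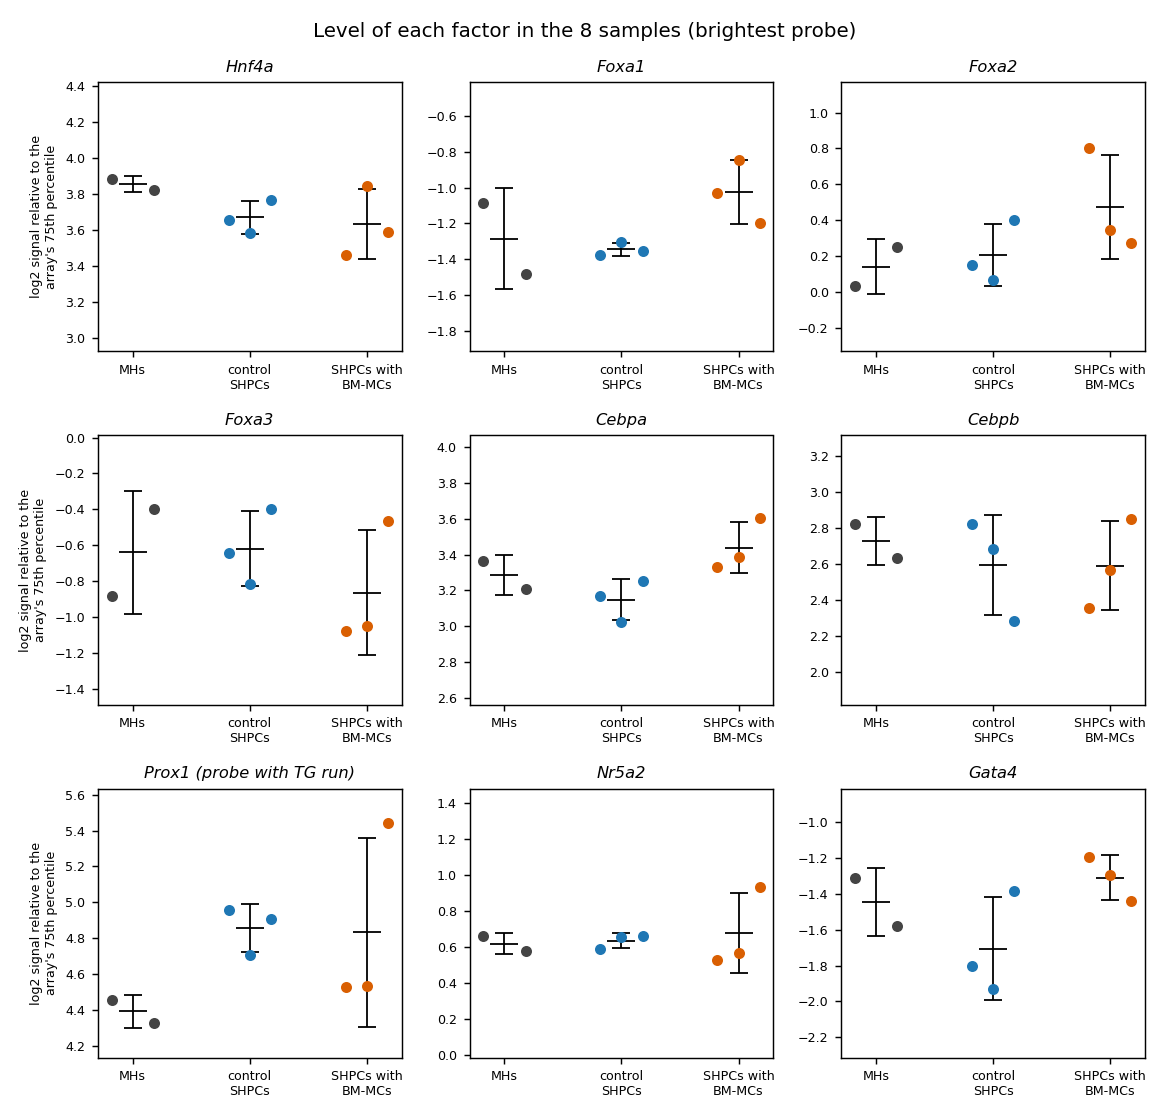
Log2 level of each gene's brightest probe relative to its array's 75th percentile (y axis, each panel spanning the same 1.5 units) in the 3 groups (x axis). Points are samples, and bars are the mean and SD (n = 2 MHs, 3 control SHPCs, 3 SHPCs with BM-MCs). In 4 of the 9 panels (Foxa3, Cebpb, Nr5a2 and Gata4) every pair of groups overlaps, and the Prox1 probe with the run has the widest range, 1.12.

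HNF4A is the nuclear receptor at the centre of the hepatocyte network. Its brightest probe (chromosome 3 from 154485383 to 154485442, plus strand, rn4) read 3.89 and 3.83 in the MHs, 3.66, 3.58 and 3.77 in control SHPCs, and 3.46, 3.85 and 3.59 in SHPCs with BM-MCs. The 3 control SHPC samples lay below both MH samples, while BM-MC replicate 2 lay between them. The log2 difference of control SHPCs from MHs was -0.19 (95% interval -0.52 to 0.15, limma adjusted p = 0.51), and that of SHPCs with BM-MCs from control SHPCs was -0.037 (-0.37 to 0.29, adjusted p = 0.91). The other 2 Hnf4a probes gave differences of 0.06 and 0.20 for control SHPCs against MHs, opposite in sign to the brightest, and 0.26 and -0.26 between the SHPC groups. None of the 3 passed, and the sign of the difference for Hnf4a therefore depended on the probe.

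FOXA1, FOXA2 and FOXA3 are pioneer factors that open liver chromatin. Foxa1 (chromosome 6 from 77976415 to 77976474, minus strand, rn4) read -1.09 and -1.48 in MHs, -1.38, -1.30 and -1.35 in control SHPCs, and -1.03, -0.85 and -1.20 in SHPCs with BM-MCs. All 3 BM-MC samples lay above all 3 control SHPC samples, while the MH samples lay on either side of the control SHPCs. The difference between the SHPC groups was 0.32 (95% interval 0.017 to 0.62), with an unadjusted p of 0.042 and an adjusted p of 0.29 by limma. This was the one gene of the 9 with an unadjusted p under 0.05, a level that 16.6% of all tested probes reached in this comparison. A second Foxa1 probe, which the array design places 29.1 kb away in rn4 counting both probes, gave 0.15 (-0.32 to 0.62, adjusted p = 0.72), and its groups overlapped.

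Foxa2 (chromosome 3 from 136739040 to 136739099, minus strand, rn4) read 0.033 and 0.25 in MHs, 0.15, 0.067 and 0.40 in control SHPCs, and 0.80, 0.34 and 0.27 in SHPCs with BM-MCs. The BM-MC samples lay above both MHs, and replicate 1 stood highest. The difference was 0.33 from MHs (95% interval -0.12 to 0.79, adjusted p = 0.48) and 0.27 from control SHPCs (-0.17 to 0.71, adjusted p = 0.48). Without BM-MC replicate 1 they were 0.17 and 0.10, and blocking on the slide set gave 0.042 and 0.074. The genes matched to RefSeq that lay closest to Foxa2 over the 8 samples, by the root mean square difference of levels centred on each probe's mean among 16416 probes searched, were Col1a2 (0.050), Lgals9 (0.079) and Lgals5 (0.080). Col1a2, a fibrillar collagen chain of stellate cells and fibroblasts, was also highest in BM-MC replicate 1 at 2.15, with the other 7 samples between 1.34 and 1.73. The mean level of the stellate markers per sample lay between -1.46 and -1.31 in control SHPCs and between -1.44 and -0.89 in SHPCs with BM-MCs, and their part in the Foxa2 values was not tested.

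Foxa3, the FOXA factor best known from the adult liver, read -0.88 and -0.40 in MHs, -0.64, -0.82 and -0.40 in control SHPCs, and -1.08, -1.05 and -0.46 in SHPCs with BM-MCs (chromosome 1 from 78368067 to 78368126, minus strand, rn4). In each group the lowest and the highest sample lay further apart than any 2 group means did. The difference of SHPCs with BM-MCs from control SHPCs was -0.25 (95% interval -0.75 to 0.26, adjusted p = 0.57), and that of control SHPCs from MHs was 0.022 (-0.55 to 0.60, adjusted p = 0.97). Leaving out single samples, the former ran from -0.45 without BM-MC replicate 3 to -0.14 without control SHPC replicate 3. The estimates for Foxa1 and Foxa2 were above 0 between the SHPC groups and that for Foxa3 was below 0, and whether the 3 genes differ from each other was not tested.

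CEBPA keeps hepatocytes quiescent and drives urea and glucose metabolism, while CEBPB responds to injury and to the acute phase. Cebpa (chromosome 1 from 87628721 to 87628780, plus strand, rn4) read 3.37 and 3.21 in MHs, 3.17, 3.03 and 3.25 in control SHPCs, and 3.33, 3.39 and 3.60 in SHPCs with BM-MCs. All BM-MC samples lay above all control SHPC samples, and the MHs overlapped both groups. The difference between the SHPC groups was 0.29 (95% interval -0.014 to 0.60), with an unadjusted p of 0.058 and an adjusted p of 0.31 by limma. The second Cebpa probe gave 0.17 (-0.36 to 0.71, adjusted p = 0.71) with overlapping groups.

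Cebpb (chromosome 3 from 158827761 to 158827820, plus strand, rn4) was measured on 10 spots per array. It read 2.82 and 2.63 in MHs, 2.82, 2.68 and 2.28 in control SHPCs, and 2.35, 2.57 and 2.85 in SHPCs with BM-MCs. The spots of one array had an SD of 0.077 to 0.11, while the samples of a group had an SD of 0.14, 0.28 and 0.25. The difference between the SHPC groups was -0.0041 (95% interval -0.48 to 0.47, adjusted p = 0.99), and that of control SHPCs from MHs was -0.13 (-0.62 to 0.36, adjusted p = 0.76). The second Cebpb probe had the same sign in all 3 comparisons.

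PROX1 is a homeobox factor of hepatocytes and lymphatic endothelium. Its brighter probe read 4.46 and 4.33 in MHs, 4.96, 4.71 and 4.91 in control SHPCs, and 4.53, 4.53 and 5.44 in SHPCs with BM-MCs. Both SHPC groups lay above the MHs without overlap, and BM-MC replicate 3 stood apart from the other BM-MC samples. The difference from MHs was 0.47 for control SHPCs (95% interval -0.18 to 1.12, adjusted p = 0.39) and 0.44 for SHPCs with BM-MCs (-0.21 to 1.09, adjusted p = 0.51). Without BM-MC replicate 3 the latter was 0.14.

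The probe without the run read 2.66 and 2.86 in MHs, 2.50, 2.53 and 2.56 in control SHPCs, and 2.66, 2.89 and 2.72 in SHPCs with BM-MCs. Here the control SHPCs lay below both other groups without overlap, and BM-MC samples and MHs overlapped. The difference of control SHPCs from MHs was -0.23 (95% interval -0.53 to 0.060, adjusted p = 0.35), and that of SHPCs with BM-MCs from control SHPCs was 0.23 (-0.037 to 0.49, adjusted p = 0.35). The 2 Prox1 probes thus had opposite signs in all 3 comparisons, and neither passed in any.

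The pattern of the brighter Prox1 probe was shared by probes of unrelated genes that hold a like run. Its root mean square difference over the 8 samples was 0.010 from LOC102556477 (run of 41 bases), 0.029 from Iba57 (31) and 0.029 from RT1-CE1 (36), but 0.41 from the other Prox1 probe, where the median over all tested probes was 0.41. On the array, 33 probes hold a TG run of at least 20 bases. BM-MC replicate 3 was the highest sample in all 32 of them other than Prox1, whereas it was highest in 11.3% of all tested probes. In 29 of the 32, the control SHPCs also lay above both MHs and above BM-MC replicates 1 and 2, an order found in 1.13% of all tested probes. In all 20 probes with a run of the complementary letters AC, BM-MC replicate 2 was the highest sample instead. The part of the run in the Prox1 signal was not tested beyond these values. With Prox1 taken by the probe without the run, a choice made after the sequence was seen, the 95% intervals of all 9 genes lay within 2-fold in all 3 comparisons.

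**Figure D2:**
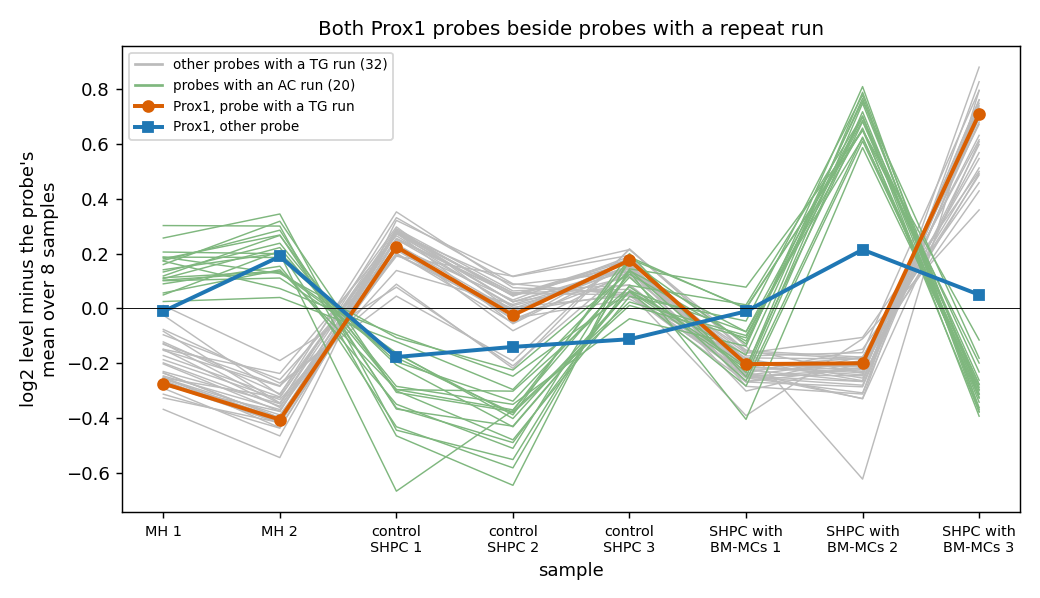
Log2 level minus the probe's own mean over the 8 samples (y axis) in each sample (x axis) for both Prox1 probes, the 32 other probes with a TG run and the 20 probes with an AC run of at least 20 bases. The Prox1 probe with the run lies within the bundle of TG-run probes, with BM-MC replicate 3 highest, and the other Prox1 probe does not.

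NR5A2 is a nuclear receptor of bile acid and cholesterol metabolism. Its brightest probe (chromosome 13 from 49929017 to 49929076, minus strand, rn4) read 0.66 and 0.58 in MHs, 0.59, 0.66 and 0.66 in control SHPCs, and 0.53, 0.57 and 0.93 in SHPCs with BM-MCs. Its groups overlapped in all comparisons. The differences were 0.018 (95% interval -0.33 to 0.37, adjusted p = 0.96) for control SHPCs against MHs and 0.042 (-0.30 to 0.38, adjusted p = 0.90) between the SHPC groups.

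GATA4 acts early in the liver bud and, in the adult liver, also in sinusoidal endothelium. Its probe (chromosome 15 from 42473004 to 42473063, minus strand, rn4) read -1.31 and -1.58 in MHs, -1.80, -1.93 and -1.38 in control SHPCs, and -1.20, -1.29 and -1.44 in SHPCs with BM-MCs. Control SHPC replicate 3 lay among the BM-MC samples, and the other 2 control SHPC samples lay below every other sample. The difference between the SHPC groups was 0.40 (95% interval -0.018 to 0.81), with an unadjusted p of 0.058 and an adjusted p of 0.31 by limma. On the second set of arrays, where control SHPC replicate 3 was the one control, it was 0.074. Of 10 sinusoidal endothelial markers, 8 were tested and 0 passed in the 3 comparisons, beside 1.13%, 0.338% and 0.0216% of all tested probes. Their median difference was -0.22 between control SHPCs and MHs and 0.11 between the SHPC groups. The mean level of these markers per sample ranged from -0.26 to -0.10 in MHs, from -0.48 to -0.22 in control SHPCs and from -0.44 to -0.18 in SHPCs with BM-MCs. Their part in the Gata4 values was not tested. The genes closest to Gata4 by the same measure over the 8 samples were Tbc1d17, Slco2b1 and Cyp4f4, with root mean square differences of 0.079, 0.082 and 0.082.

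**Figure D3:**
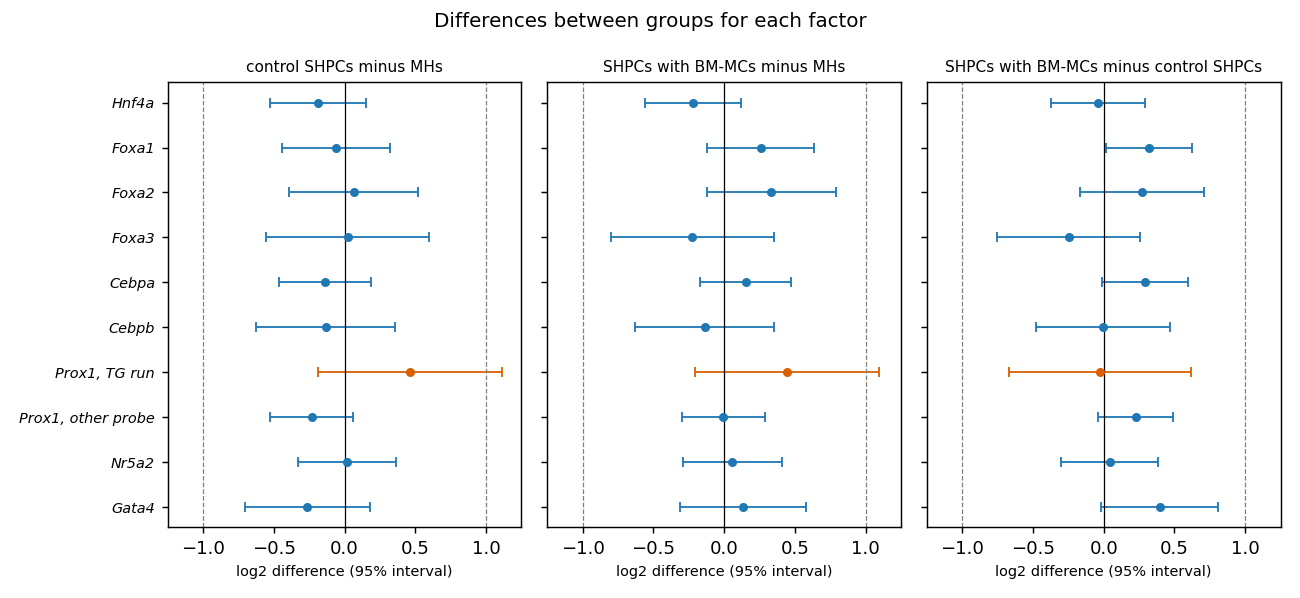
Log2 difference (x axis) with its 95% limma interval for each gene's brightest probe and for the second Prox1 probe, in 3 comparisons. Dashed lines mark a 2-fold difference in either direction, and only the Prox1 probe with the TG run (orange) has an interval that crosses one.

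Groups without overlap were counted over the 9 genes in each comparison. Control SHPCs lay above MHs in 1 gene, Prox1, and below in 1, Hnf4a, where 41.4% of all probes separated these groups in either direction. SHPCs with BM-MCs lay above MHs in 2, Foxa2 and Prox1, and below in 0 (32.3% of all probes in either direction). They lay above control SHPCs in 2, Foxa1 and Cebpa, and below in 0 (24.7%). With Prox1 by its other probe these counts were 0 above and 2 below, 1 above and 0 below, and 3 above and 0 below. Scaling to each array's median lowered the median of all probes between the SHPC groups by 0.19, and the differences of Foxa1, Cebpa and Gata4 were then 0.13, 0.10 and 0.20. Within the second set of arrays, Foxa1 and Cebpa differed by 0.33 and 0.19 from the 1 control sample there.

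Probes of the same gene gave a measure of how far a gene's value depended on the probe. Of the 6 genes with more than 1 probe, 4 kept one sign over their probes between control SHPCs and MHs, and 3 did so in each of the other comparisons. The widest spread was 0.70 for Prox1 and the narrowest 0.0016 for Cebpa, both between control SHPCs and MHs. In 5 of the 6 genes the brightest probe was the one nearest the 3′ end by its coordinates, with Prox1 as the exception. Exon and untranslated region boundaries in rn4 were not used here.

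**Figure D4:**
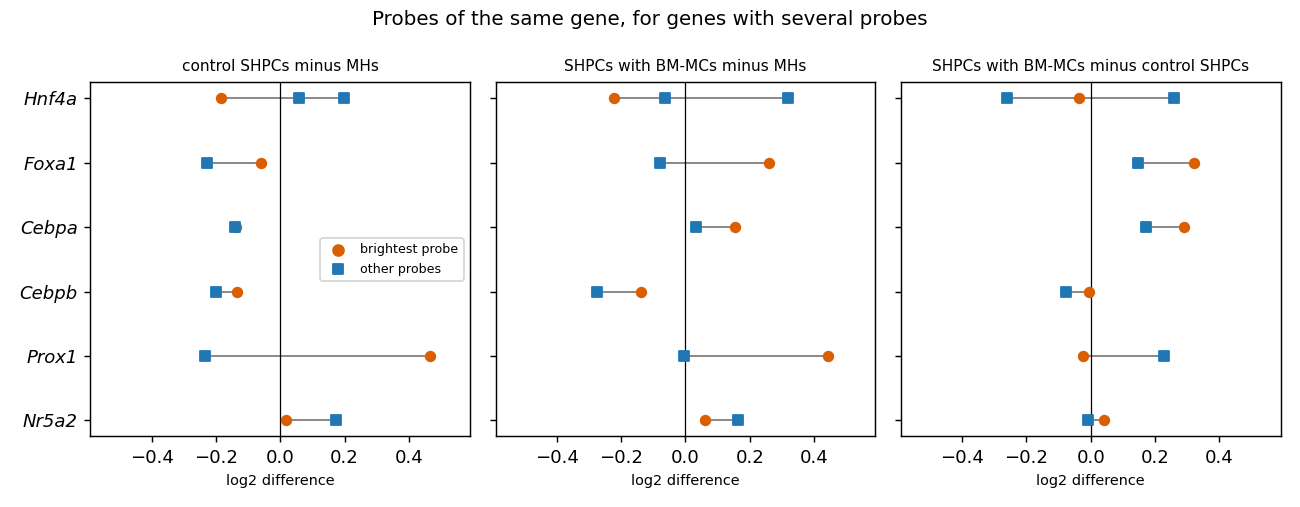
Log2 difference (x axis) of every probe of the 6 genes with several probes (y axis) in 3 comparisons, joined by a line within a gene. Orange circles are the brightest probes and blue squares the others, and the lines of Hnf4a and Prox1 cross 0 in all 3 panels.

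Among 24 other transcription factors of the liver, Onecut1 alone passed the test, in both comparisons of SHPCs with BM-MCs (0.338% of all probes passed against MHs and 0.0216% against control SHPCs). ONECUT1 (HNF6) is a homeobox factor that acts upstream of Foxa2 and Hnf4a in the developing liver and bile ducts. It read 0.53 and 0.17 in MHs, -0.16, -0.20 and -0.088 in control SHPCs, and 2.14, 1.97 and 2.31 in SHPCs with BM-MCs, so that every BM-MC sample lay above every other sample. With BM-MCs it exceeded the control SHPCs by 2.29 (SE 0.13, limma adjusted p = 0.023) and the MHs by 1.79 (SE 0.16, adjusted p = 0.022). Neither difference passed when the replicate number was fitted as a block. Between the SHPC groups, leaving out control SHPC replicate 1 or 2 or BM-MC replicate 1 or 2 raised the adjusted p to 0.14, 0.19, 0.086 and 0.069 with differences of 2.26 to 2.38. Against MHs, leaving out MH replicate 1 or 2 or BM-MC replicate 2 raised it to 0.098, 0.060 and 0.069. The median of the 24 factors was -0.068, -0.025 and 0.0031 in the 3 comparisons.

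Promoter sequences from RefSeq (GRCr8, from 250 bases before to 50 after a start site) were given for 6 of the 9 genes in 7 windows, Hnf4a having an upstream and a downstream start. The letters ATTGAT, a core of sites bound by ONECUT factors, or their reverse complement were found in Foxa2 and in the upstream Hnf4a window, and in 8.06% of all 33469 windows. The letters GTTAAT, a core of HNF1 sites, or their reverse complement occurred 2 times in the downstream Hnf4a window and at least once in 7.45% of all windows. The first of these motifs is shown because Onecut1 was the one factor that passed the test, and the downstream Hnf4a window stands beside it as the other start of the same gene. Each stretch of 60 bases is written 5′ to 3′ on the gene's strand with the matches in capitals, at chr3:155927612-155927671 (minus strand), chr3:172606160-172606219 (plus) and chr3:172641722-172641781 (plus) of GRCr8.
Foxa2: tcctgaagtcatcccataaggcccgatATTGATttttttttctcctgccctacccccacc
Hnf4a, upstream start: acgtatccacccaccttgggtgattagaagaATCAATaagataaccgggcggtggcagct
Hnf4a, downstream start: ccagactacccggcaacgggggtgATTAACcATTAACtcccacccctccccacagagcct

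The match begins 136 bases before the start site in Foxa2 and 29 before it in Hnf4a. Beside the Onecut1 difference of 2.29 between the SHPC groups stood 0.27 for Foxa2 and -0.037 for Hnf4a, neither of which passed. The letters AGATAA of GATA sites were found once, in the upstream Hnf4a window (11.6% of all windows), and TGTTTAC (FOXA), TTGCNNAA (C/EBP) and CAAAGTCCA (HNF4) in 0 of the 7. A match describes letters and is not a site shown to be bound, and no match says only that these letters are not in these windows.

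Known targets of the factors were described by list. Of 20 targets of HNF4A, 8 of the FOXA factors, 13 of the C/EBP factors and 7 tested of 8 of NR5A2, 0 passed in any comparison. The shares of all tested probes that passed were 1.13%, 0.338% and 0.0216%, so 0 calls do not set lists of this size apart. Some genes stand in more than one list. Large differences between control SHPCs and MHs, named after their values were seen, lay in both directions. Cyp7a1, the rate-limiting enzyme of bile acid synthesis, read 0.43 and -0.078 in MHs, -1.98, -1.94 and -1.51 in control SHPCs, and -0.82, -0.44 and -2.85 in SHPCs with BM-MCs. It differed by -1.99 between control SHPCs and MHs (adjusted p = 0.18). This adjusted p was 0.029 when both groups were fitted alone and 0.38 with no filter on dim probes. A block for the replicate number gave 0.33 and a block for the slide set 0.23. Apoa2, an apolipoprotein of high-density lipoprotein, differed by -1.68 (adjusted p = 0.15), and for both genes the groups did not overlap. Tat, which degrades tyrosine, differed by 1.04 (adjusted p = 0.18), also without overlap. Abcg5, a sterol transporter, differed by 1.69 (adjusted p = 0.29), which rested on MH replicate 1 at -4.04, and by 0.44 without it.

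The median of the FOXA list was 0.47 between control SHPCs and MHs, with 5 of 8 genes above MHs without overlap (41.4% of all probes separated these groups in either direction), and 0.49 for SHPCs with BM-MCs against MHs, with 4 of 8 above (32.3%). Leaving out single samples, these medians ran from 0.31 to 0.57 and from 0.32 to 0.57. Blocked on the slide set, Tat and Afp of this list fell from 1.02 and 0.63 to 0.42 and 0.31 for SHPCs with BM-MCs against MHs. The blocked values of its other genes are not given here. In these comparisons with MHs the medians were 0.10 and 0.028 for the HNF4A list, 0.15 and 0.020 for the C/EBP list, and 0.33 and 0.041 for the NR5A2 list, all below those of the FOXA list. Alb, Tat, Pck1, Cps1 and G6pc1 stand in both the FOXA and the C/EBP list, and whether the lists differ was not tested. Afp, the fetal albumin relative, read 2.27 and 2.21 in MHs, 2.83, 2.82 and 3.14 in control SHPCs, and 2.87, 2.72 and 2.99 in SHPCs with BM-MCs. It differed by 0.69 between control SHPCs and MHs (adjusted p = 0.087). This adjusted p was 0.027 with an intensity trend, 0.31 without scaling and 0.24 with no filter on dim probes. A block for the replicate number gave 0.15 and a block for the slide set 0.13. Between the SHPC groups, the medians of the HNF4A, FOXA, C/EBP and NR5A2 lists were 0.020, -0.042, -0.018 and -0.26, and 0 genes of these lists separated the groups, beside 24.7% of all probes.

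Dividing-cell genes changed in the same samples. Of 10 markers of dividing cells, 6 rose in control SHPCs over MHs, namely Mki67, Top2a, Cdk1, Ccnb1, Ccna2 and Bub1, by 2.50 to 3.51, beside 1.13% of all probes called in either direction. The list median was 2.71, and without MH replicate 1 the count was 4. Top2a, which untangles DNA at division, differed by 3.37 (adjusted p = 0.0033), and by 1.93 with normexp and quantile normalization. In SHPCs with BM-MCs the same genes other than Bub1, 5 in all, passed against MHs (0.338% of all probes), with a list median of 1.86. These 5 calls were less firm, since 0 passed with the replicate block, a block for the slide set, quantile normalization, normexp, no filter on dim probes or a fit of both groups alone, or without MH replicate 1, MH replicate 2 or BM-MC replicate 2, while the median stayed between 1.17 and 2.13 in all alternatives. The methods' t-test with Benjamini-Hochberg adjustment called 0 of the 10 in both comparisons. Between the SHPC groups the list median was -0.86, with 0 of 10 past the test (0.0216% of all probes) and 7 of 10 lower with BM-MCs without overlap (24.7% of all probes in either direction).

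Markers of other cells were described in the same way. Of the lists for Kupffer cells, stellate cells, biliary cells, granulocytes and erythroid cells, Rgs5, a gene of stellate cells and pericytes, differed by -1.09 between control SHPCs and MHs (adjusted p = 0.034), beside 1.13% of all probes called, and 0 other genes passed. The stellate list itself had a median of 0.081, with 5 genes above 0 and 4 below. Leaving out a control SHPC sample raised the adjusted p of Rgs5 to between 0.069 and 0.13. Without MH replicate 1 or 2 its difference was -1.19 or -0.99. The adjusted p of Rgs5 was 0.087 with the replicate block, 0.069 with the slide set block and 0.11 without scaling. It was 0.12 with normexp, 0.11 with no filter on dim probes and 0.091 with probes averaged. The Kupffer cell list had a median of -0.60 in control SHPCs and -0.41 in SHPCs with BM-MCs against MHs, and the biliary list had a median of 0.53 in control SHPCs against MHs, with 4 of 9 tested genes above without overlap, beside 41.4% of all probes in either direction. Without MH replicate 2 the biliary median was 0.098, and when blocked on the slide set the Kupffer median of SHPCs with BM-MCs against MHs was 0.11. Between the SHPC groups the granulocyte list had a median of -1.30, with 3 of 5 tested genes lower with BM-MCs without overlap, beside 24.7% of all probes in either direction. These were S100a8, S100a9 and Retnlg (-1.46, -1.84 and -1.30), while Ncf1 and Fcnb differed by 0.12 and 0.25. The adjusted p of S100a9 was 0.068, and it fell to 0.021 without scaling, 0.020 with an intensity trend, 0.034 with array weights and 0.034 without control SHPC replicate 3, where all 3 of these genes passed. It rose to 0.28 and 0.27 without control SHPC replicate 1 or 2, and to 0.22 with normexp. With no filter on dim probes it was 0.20, with the replicate block 0.20 and with the slide set block 0.18. The methods' t-test with Benjamini-Hochberg adjustment gave 0.25. The erythroid list had a median of -1.28, with 4 of 6 tested genes lower without overlap (24.7%), and of -0.74 without control SHPC replicate 3. The part of these cells in the values of the 9 genes was not tested.

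**Figure D5:**
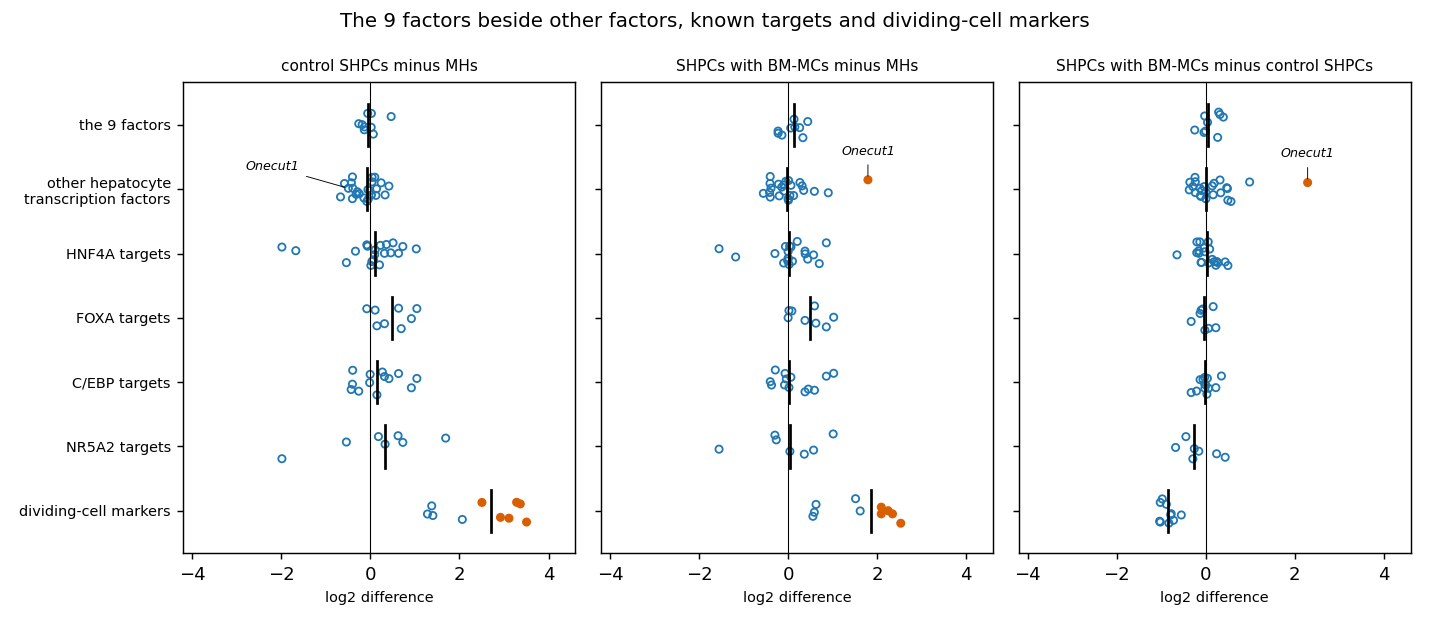
Log2 difference (x axis) of each tested gene in 7 gene lists (y axis) in 3 comparisons. Filled points passed limma at an adjusted p under 0.05, and black bars are list medians. The 9 factors lie between -0.26 and 0.47, with 0 filled points, while Onecut1 and the dividing-cell markers hold the filled ones.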

How the data were processed

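The authors deposited 1-colour scanner files and a value table of processed signal. Per the labels, Agilent Feature Extraction 10.7 made this intensity, with background subtracted and arrays left unscaled. Signals were read from the value table. They were set on the log2 scale minus each array's 75th percentile, outlier spots were left out and spots of a probe averaged. Probes had to be well above background on 3 or more of 7 arrays whose marks were complete, which left 23111 for limma 3.58.1 (R 4.3.3, 2-sided, Benjamini-Hochberg, threshold 0.05), with all 8 samples in the fits against MHs and the 6 SHPC samples between SHPC groups. The scripts were tested on simulated data. A gene was represented by its brightest tested probe. The number of arrays limits the precision. The methods name Student's t-test on the microarray data, which was run as an alternative, beside other scalings, filters, fits and leaving out each sample.

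The genes and lists were chosen with earlier results of these data known. Named were the 9 genes, genes past the threshold in the factor and target lists, which gave Onecut1 alone, and for the 3 of the 9 with the widest range the 3 most alike genes matched to RefSeq. Other list and marker genes were named after their values were seen. Gene names of other probes were updated through RefSeq (GRCr8). Probe coordinates are those of the array design, with rn4 as the build in the file headers.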

Additional observations from a re-analysis of the deposited data

How the results depend on the processing

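The number of the 9 genes past an adjusted p under 0.05 was 0 in every comparison under all adjusted alternatives (21, 21 and 22), and 0 whenever a single sample was left out. Without adjustment, the methods' t-test called 1 of the 9 genes between control SHPCs and MHs (Prox1 by the probe with the TG run) and 1 between the SHPC groups (Foxa1). The same test called 4037 and 3453 of the 23111 tested probes there. After Benjamini-Hochberg adjustment it called 0 of the 9.

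Replicate numbers are shared between the groups. Same-numbered samples deviated together with correlations from -0.13 to 0.17. Between the SHPC groups these were 0.13, 0.078 and 0.17, beside -0.15 to 0.082 for samples of different numbers. The numbers were not taken to pair the samples, and a replicate block was run as an alternative. With a replicate block, 0 of the 9 genes passed, all-probe calls went from 262, 78 and 5 to 159, 0 and 0, and Onecut1 stood at 1.74 (adjusted p = 0.098) and 2.29 (adjusted p = 0.19). Control SHPC replicate 2 correlated slightly better with BM-MC replicate 1 (0.082) than with its own number (0.078). Over all alternatives with adjustment, the counts over all probes ranged from 0 to 559, 0 to 130 and 0 to 530, the highest of the last without control SHPC replicate 3. The unadjusted t-test gave 4037, 2141 and 3453 probes.

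Of 670 gene values under alternatives, 52 turned sign, mostly of differences near 0. Between control SHPCs and MHs, without scaling Foxa2, Foxa3 and Nr5a2 were -0.023, -0.066 and -0.070, with array weights Foxa3 was -0.041, with the replicate block Foxa3 and Nr5a2 were -0.13 and -0.054, blocking on the slide set turned Foxa2, Foxa3 and Cebpb to -0.033, -0.088 and 0.023, with probes averaged Hnf4a was 0.024, and by its other probe Prox1 was -0.23. Between SHPCs with BM-MCs and MHs, median scaling gave Cebpa, Nr5a2 and Gata4 -0.045, -0.14 and -0.064, no scaling Nr5a2 -0.021, the replicate block Nr5a2 -0.012, the slide set Cebpa, Cebpb and Gata4 -0.0023, 0.33 and -0.35, averaged probes Hnf4a 0.011, and the other probe Prox1 -0.0049. Between the SHPC groups, median scaling gave Nr5a2 -0.15, quantile normalization Hnf4a, Cebpb and Prox1 0.091, 0.089 and 0.063, no scaling Cebpb 0.0033, normexp on 7 arrays Hnf4a, Cebpb and Prox1 0.014, 0.11 and 0.0061, the slide set Cebpb 0.31, averaged probes Prox1 0.10, and the other probe Prox1 0.23. Median scaling moved the median of all probes by -0.20 for SHPCs with BM-MCs against MHs and by -0.19 between the SHPC groups, and no scaling moved it by -0.088 for control SHPCs and -0.081 for SHPCs with BM-MCs against MHs, so the turns of sign against MHs under these scalings, and that of Nr5a2 between the SHPC groups under median scaling, came with a shift common to all probes. For the others, apart from the change of probe or samples itself, the cause was not tested.

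Leaving out single samples, the values between control SHPCs and MHs ran from -0.26 to 0.14 for Foxa1, -0.044 to 0.17 for Foxa2, -0.22 to 0.26 for Foxa3, -0.25 to 0.023 for Cebpb and -0.025 to 0.060 for Nr5a2. Against MHs, SHPCs with BM-MCs ran from -0.47 to 0.017 for Foxa3 and -0.070 to 0.13 for Nr5a2. Between the SHPC groups they ran from -0.14 to 0.049 for Hnf4a, -0.16 to 0.11 for Cebpb, -0.33 to 0.13 for Prox1 and -0.087 to 0.12 for Nr5a2. Onecut1 kept its direction in all alternatives, from 1.60 to 1.98 over MHs and from 2.10 to 2.38 over control SHPCs. Fits that leave a group with 1 sample assume that it varies like the others.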
